A study of Rattus norvegicus with 6 samples.

Results

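Genes of glycolysis, glycogen metabolism and lactate handling were followed in rat gastrocnemius, the large calf muscle, across 3 diets that differed in their protein. The genes were a list of 35 symbols, matched by name to the array's annotation. In all, 34 of them were measured, among 14506 genes, and Ppp1r3c was not analysed here. The animals were male Sprague-Dawley rats made obese by diet. All ate freely from a high-fat, high-sucrose food with 4.6 kcal/g and 10% of the energy as protein, from 12 to 20 weeks of age. The casein group had casein alone and served as control. The dairy group had complete dairy protein in the form of skim milk powder. In the leucine group, casein supplied 7.1% of the energy and added free leucine 2.9%. The series text speaks of 4 rats per diet, whereas 2 arrays per diet are held here, and no label says whether an array stands for 1 rat or for pooled rats. The p-values below therefore measure only the spread between these samples.

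Glycolysis splits glucose into pyruvate in the cytosol and yields ATP without oxygen. Fast-twitch fibres, which make up most of the gastrocnemius, rely on it and on their glycogen, the branched glucose polymer that muscle stores. Pyruvate is either reduced to lactate, which leaves the cell through monocarboxylate transporters, or is oxidised in mitochondria, the route that slow-twitch fibres favour.

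Values were log2 signals of the Rat Gene 1.0 ST array, so a difference of 1 is a doubling. Markers of the labelled tissue were high, with the 12 fast-fibre genes measured ranking at percentile 99.9 (median 12.41). Casein array 2 stood apart from the other 5. Its mean correlation with them was 0.974, where the rest had 0.985 to 0.988. All 11 slow-fibre markers were lowest there, with a median of 2.98 below their gene means, and the fast type IIa myosin gene Myh2 read 8.26 against 11.40 to 11.89 elsewhere. All 15 hepatocyte markers were highest there, with a median level of 6.28 against 3.11 to 4.95 on the other arrays. Alb, which encodes albumin, ran from 4.81 on leucine array 1 to 11.69 on casein array 2. In bulk tissue, fewer fibres of a type and less RNA per fibre cannot be told apart.

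The genes were among the brightest of the array (median 9.97, percentile 98.9). By limma with Benjamini-Hochberg adjustment over all genes, 0 of the 34 passed an adjusted p of 0.05 in any of the 3 comparisons, and 0% of all genes passed. The lowest adjusted p among the 34 was 0.547 for leucine against casein, 0.833 for dairy against casein and 0.553 for leucine against dairy. At an unadjusted p under 0.05 there were 0 of 34 for leucine against casein, where 9.61% of all genes met that mark. For dairy against casein there was 1 of 34, higher with dairy, where 2.49% of all genes were higher at that mark and 4.8% met it in either direction. For leucine against dairy there were 4 of 34, all lower with leucine, where 3.45% of all genes were lower at that mark and 5.7% met it in either direction. Of the 726 genes in the top 5% by level, a group added after the values were seen, 10.9% met it. These 4 were Gapdh, Aldoa, Gpi and Pygm.

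**Figure D1:**
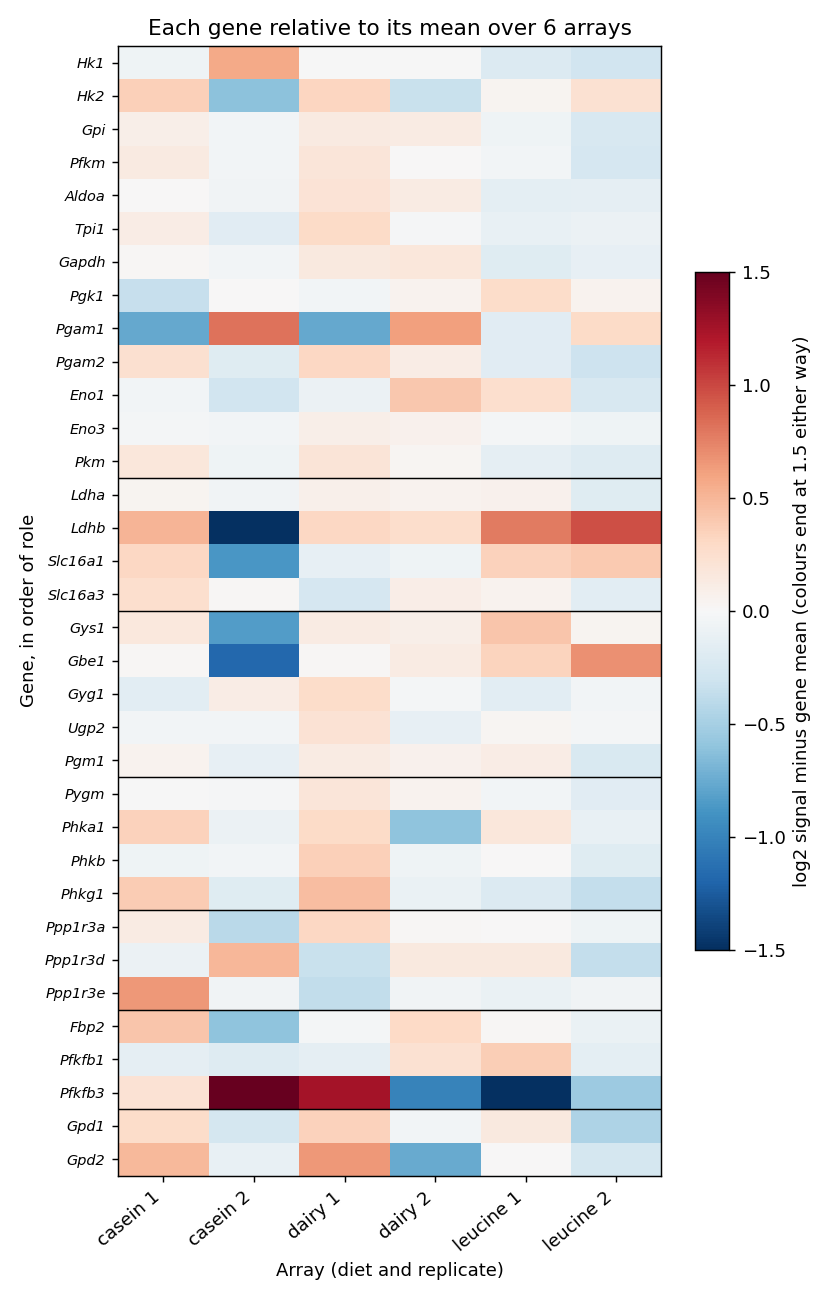
Log2 signal of each of the 34 genes (vertical axis, grouped by role, black lines between groups) on each of the 6 arrays (horizontal axis), given as the difference from the gene's mean over the arrays. Colours end at 1.5 either way. Ldhb and Gbe1 are deepest on casein array 2 and Pfkfb3 differs between arrays of every diet, while Eno3, Gapdh and Aldoa differ by little.

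Of the 13 glycolytic enzymes, 10 stood lower with leucine than with dairy protein, and the median log2 fold change was −0.23. Over all genes 48.5% were lower and 48.4% higher in that comparison and the median was 0. Over the top 5% by level the median was −0.0075. In 9 of the 13 enzymes both leucine arrays lay below both dairy arrays, which was so for 14.9% of all genes. The 3 not lower were Hk2, Pgk1 and Pgam1. Quantile normalization by construction gives clusters of equal rank on each array the same value. A gene that holds the same rank on every array then shows no difference. After it, 7 of 13 were lower, Gapdh was at 0 and the median was −0.11. There 6 lay apart below dairy and 2 above, where 18.6% and 21.3% of all genes did. With each array centred on its median, 10 of 13 were lower, the median was −0.17, and 8 lay apart below dairy and 1 above, where 9.38% and 39.2% of all genes did.

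Gapdh, the dehydrogenase that makes the NADH of the pathway, read 13.32 and 13.26 on the casein arrays, 13.44 and 13.47 on the dairy arrays and 13.12 and 13.17 on the leucine arrays. The diets did not overlap, with dairy on top and leucine at the bottom. Leucine was lower than dairy by a log2 fold change of −0.31 ± 0.061 (SE, n = 2 against 2), or 1.24-fold, with a limma adjusted p of 0.553, but the value was 0 after quantile normalization. The array carried 16 transcript clusters under this symbol, near-identical copies that can share signal, and all 16 were lower with leucine, between −0.35 and −0.23. Aldoa, the muscle aldolase, read 13.13 and 13.07 with casein, 13.32 and 13.24 with dairy and 12.97 and 12.99 with leucine. The order of the diets was the same as for Gapdh, again without overlap. Its difference between leucine and dairy was −0.30 ± 0.065 (limma adjusted p = 0.606), and that between dairy and casein was 0.18 ± 0.065 (limma adjusted p = 0.833), but these were 0.012 and −0.012, of the opposite sign, after quantile normalization.

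Gpi, which turns glucose phosphate into fructose phosphate, read 11.28 and 11.14 with casein, 11.32 and 11.31 with dairy and 11.12 and 10.95 with leucine. Leucine lay below both other diets, by −0.28 ± 0.093 against dairy (limma adjusted p = 0.829) and −0.17 ± 0.093 against casein. Pfkm, the muscle phosphofructokinase that commits sugar to glycolysis, read 12.47 and 12.30 with casein, 12.52 and 12.34 with dairy and 12.30 and 12.09 with leucine. Its leucine arrays lay below the dairy arrays, by −0.23 ± 0.12, and overlapped casein. Pgam2, the muscle phosphoglycerate mutase, read 11.67 and 11.25 with casein, 11.74 and 11.55 with dairy and 11.27 and 11.13 with leucine. Its difference between leucine and dairy, −0.44 ± 0.17, was the widest among the glycolytic enzymes. After quantile normalization the 3 genes kept their direction against dairy, at −0.19, −0.20 and −0.33.

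Pkm, pyruvate kinase, was lower with leucine than with dairy by −0.27 ± 0.11 and lower than with casein by −0.22 ± 0.11, and its 3 clusters gave −0.27 to −0.23 against dairy. Tpi1, triosephosphate isomerase, differed by −0.23 ± 0.15 between leucine and dairy. Eno3, the muscle enolase, had the narrowest range of the list, from 12.57 on leucine array 2 to 12.73 on dairy array 1. Its arrays read 12.61 and 12.60 with casein, 12.73 and 12.70 with dairy and 12.61 and 12.57 with leucine. Dairy lay above the others, by 0.11 ± 0.057 over casein, while leucine against dairy was −0.13 ± 0.057, or 0.065 after quantile normalization.

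Pgk1, which makes the first ATP of the pathway, went the other way. It read 10.73 and 11.08 with casein, 11.03 and 11.12 with dairy and 11.34 and 11.12 with leucine. The leucine arrays lay above both casein arrays, by 0.32 ± 0.15 (limma adjusted p = 0.611), and overlapped dairy. Eno1, the enolase found in most tissues, differed from casein by 0.17 ± 0.25 with leucine and 0.32 ± 0.25 with dairy, with overlapping arrays. Pgam1, the mutase of non-muscle tissues, ranged from 7.39 on casein array 1 and dairy array 1 to 8.97 on casein array 2. The replicate 2 array was the higher in all 3 diets, at 8.97, 8.77 and 8.45 against 7.39, 7.39 and 7.99, a wider spread than between the diet means.

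The hexokinases trap glucose in the cell by phosphorylation. Hk2, the insulin-responsive form of muscle, read 7.81 and 6.84 with casein, 7.78 and 7.12 with dairy and 7.50 and 7.69 with leucine. All diets overlapped, and the difference between leucine and casein was 0.27 ± 0.41, or −0.21 without casein array 2. Hk1, the form of most other tissues, was dim, at 4.87 and 5.50 with casein, 4.92 and 4.92 with dairy and 4.73 and 4.64 with leucine. Both leucine arrays lay below all others. Against casein the log2 fold change was −0.50 ± 0.22 (limma adjusted p = 0.582), or −0.19 without casein array 2.

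**Figure D2:**
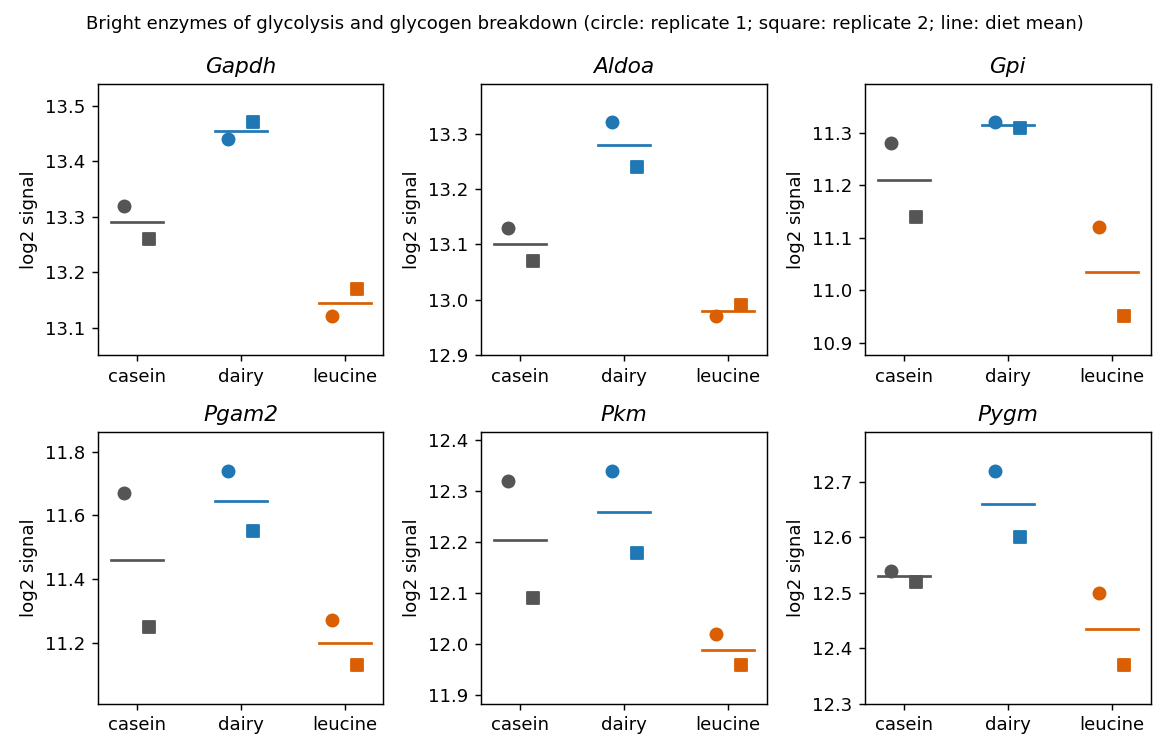
Log2 signal (vertical axis, each panel on its own scale that does not start at 0) of 6 bright genes on the 2 arrays of each diet, with the diet mean as a line. In all 6 panels the 2 leucine arrays sit below the 2 dairy arrays, from −0.22 for Pygm to −0.44 for Pgam2.

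Markers of fast fibres moved the same way as the glycolytic enzymes between leucine and dairy. Of the 12 measured, 11 were lower with leucine (median −0.26). The arrays of 7 lay apart in that direction and of 1 in the other, where 14.9% and 13.4% of all genes did. Of the 726 genes in the top 5% by level, 155 and 154 did. Marker values are given on the deposited scale only. The fast-fibre median relative to gene means was 0.25 on dairy array 1, 0.04 on dairy array 2, −0.10 on leucine array 1 and −0.14 on leucine array 2. General muscle genes numbered 6 of 7 lower (median −0.26) and slow-fibre markers 9 of 11 higher (median 0.36). Markers of other cells also stood lower with leucine: 7 of 7 of fibroblasts (median −1.38), 10 of 10 of macrophages and leukocytes (median −0.62) and 7 of 7 of adipocytes (median −0.77). Hepatocyte markers went the other way, with 14 of 15 higher (median 0.53). The part of fibre type or of other cells in the enzyme differences was not tested.

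Against casein the picture for glycolysis was mixed. With leucine 9 of 13 enzymes were lower (median −0.12), and 5 lay apart below casein, where 15.6% of all genes did. With dairy 11 of 13 were higher (median 0.12), and 4 lay apart above casein, where 11.5% of all genes did. Both comparisons share the casein arrays. Without casein array 2 the median was −0.19 for leucine, with 10 of 13 lower, and 0.046 for dairy, with 9 of 13 higher. Centring each array on its median moved the median of all genes by 0.10 for leucine against casein. On that scale 7 of 13 enzymes were lower (median −0.020), and 1 lay apart below casein and 2 above, where 8.18% and 42.9% of all genes did. After quantile normalization leucine had 8 of 13 lower (median −0.041). There 5 lay apart below casein and 1 above, where 17.7% and 22.7% of all genes did. For dairy 8 of 13 were higher after quantile normalization (median 0.023), and 0 lay apart above casein and 1 below, where 19.6% and 13.4% of all genes did. With array centring 11 of 13 were higher with dairy (median 0.16). There 5 lay apart above casein and 0 below, where 29.9% and 8.33% of all genes did. The 726 genes in the top 5% by level gave 602 higher with dairy, at a median of 0.13 beside the 0.12 of the enzymes, and 497 higher with leucine, at a median of 0.11.

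Lactate handling differed from glycolysis in where its spread lay. Lactate dehydrogenase is built from A subunits, which prevail in fast muscle, and B subunits, which prevail in slow muscle and heart and whose enzyme favours lactate oxidation. The stretch of 250 bases before the start of each subunit's gene is shown, because the balance of the pair differed between leucine and dairy with no overlap. Sequences are from RefSeq, build GRCr8, 5′ to 3′ on the gene's strand. Capitals mark ACGTG or its complement CACGT, a form of the core letters bound by hypoxia-inducible factors, which drive many glycolytic genes. The form GCGTG was not searched for.
Ldha, chr1:106507842-106508091, plus strand: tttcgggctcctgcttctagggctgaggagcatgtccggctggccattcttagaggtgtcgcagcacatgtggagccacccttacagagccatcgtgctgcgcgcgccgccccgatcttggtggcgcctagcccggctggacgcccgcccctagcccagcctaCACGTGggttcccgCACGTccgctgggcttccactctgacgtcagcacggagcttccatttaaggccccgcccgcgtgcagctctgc
Ldhb, chr4:177177409-177177658, minus strand: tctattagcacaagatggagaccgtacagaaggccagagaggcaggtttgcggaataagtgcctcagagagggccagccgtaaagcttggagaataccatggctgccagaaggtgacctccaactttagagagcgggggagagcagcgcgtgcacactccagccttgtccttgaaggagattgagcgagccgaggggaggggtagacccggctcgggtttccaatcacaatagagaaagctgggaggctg
The Ldha window held 3 such matches, 2 of them overlapping in a CACGTG palindrome whose matches begin 87 and 86 bases before the start, and 1 beginning 73 bases before it. The Ldhb window held 0, but it does hold gcgtg, the form not searched for. The letters ACGTG or CACGT occurred in 16.9% of 27457 rat promoter windows of that length, taking the first listed start of each gene. They occurred in 12 of the 31 windows found for the 34 genes. Other runs of letters were counted in the same way, on either strand. GGGCGG was in 16 of the 31 and 32.4% of all windows, CACGTG in 5 and 5.79%, and AAGGTCA in 0 and 3.77%. A match is a run of letters and no evidence of binding.

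Ldhb read 8.29 and 4.96 with casein, 8.09 and 8.05 with dairy and 8.57 and 8.75 with leucine. Casein array 2 was 3.39 below the mean of the other 5, and 0.441% of all genes were over 2-fold below every other array there. The other 5 arrays spanned 8.05 to 8.75, with leucine above casein array 1 and both dairy arrays. The log2 fold change was 2.04 ± 1.13 for leucine against casein (limma adjusted p = 0.646) and 1.45 ± 1.13 for dairy against casein (limma adjusted p = 0.833). Without casein array 2 these were 0.37 and −0.22. Leucine against dairy was 0.59 ± 1.13 (limma adjusted p = 0.955), an error that carries the casein spread.

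Ldha read 12.65 and 12.56 with casein, 12.69 and 12.66 with dairy and 12.67 and 12.43 with leucine on its brighter cluster. Leucine overlapped both other diets, and dairy lay above casein by 0.073 ± 0.10, or −0.046 after quantile normalization. The second cluster of the gene read 11.45 and 11.06 with casein, 11.52 and 11.06 with dairy and 11.03 and 10.69 with leucine. There leucine lay below casein and dairy, by −0.39 and −0.43, while the brighter cluster gave −0.052 and −0.13, so the size of an Ldha difference depended on the cluster. Ldhb relative to Ldha, taken within each array and set to a mean of 0, was 0.47 and −2.78 with casein, 0.22 and 0.21 with dairy and 0.73 and 1.14 with leucine. The B to A balance was thus highest on the leucine arrays. Other isoform pairs were taken in the same way. Slc16a1 to Slc16a3 also lay apart above dairy with leucine. Hk1 to Hk2, Pgam1 to Pgam2, Eno1 to Eno3, Pfkfb1 to Pfkfb3 and Gpd1 to Gpd2 overlapped between leucine and dairy. Of all single genes, 13.4% lay apart above dairy with leucine and 14.9% below. With 2 arrays against 2 the two-sided p of an exact permutation test cannot go below 1 in 3, so none was run.

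Slc16a1, the transporter that mainly imports lactate into oxidative fibres, read 7.80 and 6.62 with casein, 7.37 and 7.43 with dairy and 7.84 and 7.88 with leucine. Leucine lay above both other diets, by 0.46 ± 0.40 over dairy and 0.65 ± 0.40 over casein (limma adjusted p = 0.664), or 0.057 over casein without casein array 2. Slc16a3, the exporter of glycolytic fibres, ranged from 8.81 on dairy array 1 to 9.31 on casein array 1. Its log2 fold changes were −0.19 ± 0.17 for leucine and −0.21 ± 0.17 for dairy against casein, with overlapping arrays. The balance of Slc16a1 to Slc16a3, relative to its mean, was 0.06 and −0.89 with casein, 0.13 and −0.15 with dairy and 0.29 and 0.55 with leucine.

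**Figure D3:**
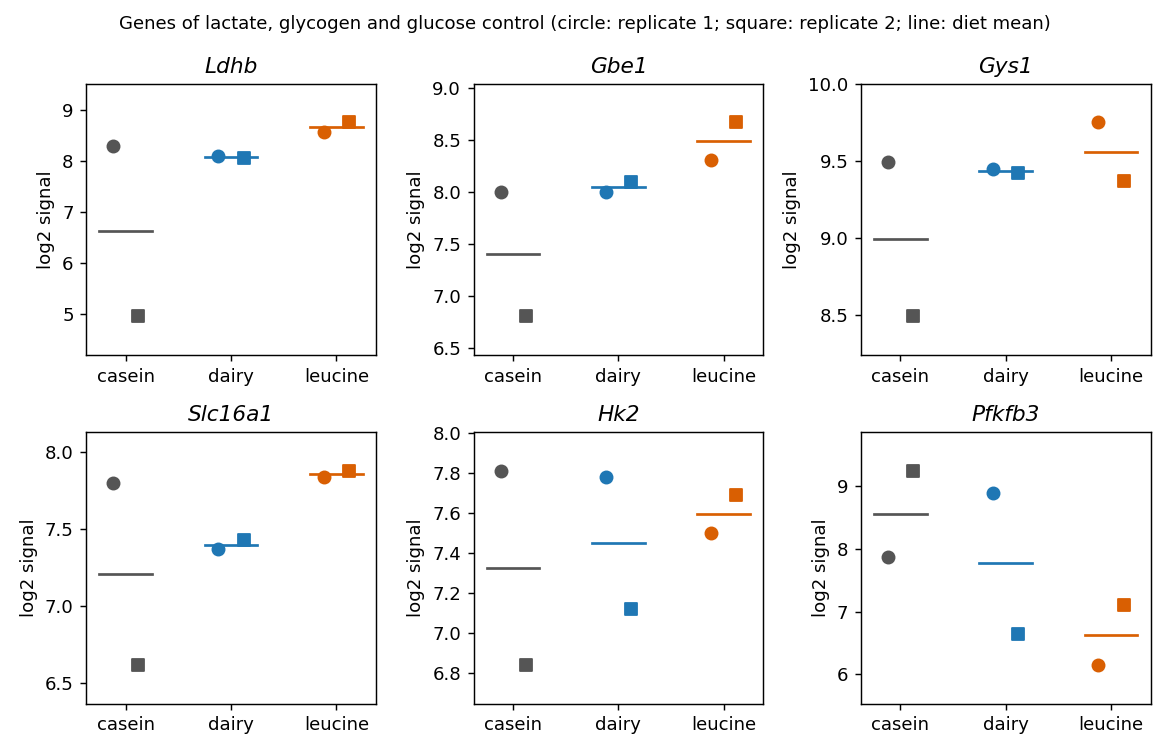
Log2 signal (vertical axis, each panel on its own scale that does not start at 0) of 6 genes with wide spread on the 2 arrays of each diet, with the diet mean as a line. Casein array 2 is the lowest square in Ldhb, Gbe1, Gys1, Slc16a1 and Hk2, at 4.96, 6.80, 8.49, 6.62 and 6.84, and the highest in Pfkfb3, at 9.25.

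Among the genes of glycogen synthesis, the branching enzyme and the synthase varied most. Gbe1, which adds the branches, read 8.00 and 6.80 with casein, 8.00 and 8.10 with dairy and 8.31 and 8.67 with leucine. Leucine lay above both other diets, by 1.09 ± 0.43 over casein, or 2.13-fold, with a limma adjusted p of 0.547, the lowest of the list in that comparison. It lay 0.44 ± 0.43 above dairy, and 0.49 above casein without casein array 2. Without leucine array 2 its difference from dairy was 0.26. Gys1, the muscle glycogen synthase that lengthens the chains, read 9.49 and 8.49 with casein, 9.45 and 9.42 with dairy and 9.75 and 9.37 with leucine. Without casein array 2, leucine spanned the other arrays, while casein array 1 was just above both dairy arrays. The difference between leucine and casein was 0.57 ± 0.36, or 0.076 without that array.

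The other 3 differed less. Gyg1, the self-glucosylating primer of the granule, was lower with leucine than with dairy by −0.22 ± 0.15 with no overlap. However, leucine array 2 at 9.68 and dairy array 2 at 9.69 nearly met. Without dairy array 1 the difference was −0.067. Ugp2, which makes the activated glucose donor, stayed between 10.27 and 10.61 and its diet means lay between 10.35 and 10.44. Pgm1, which moves the phosphate of glucose between its ends, was higher with dairy than with casein by 0.13 ± 0.14, or −0.060 after quantile normalization.

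Of the 4 glycogen breakdown genes, 3 stood lower with leucine than with dairy (median −0.23). Pygm, muscle glycogen phosphorylase, read 12.54 and 12.52 with casein, 12.72 and 12.60 with dairy and 12.50 and 12.37 with leucine. The diets did not overlap, with dairy on top and leucine at the bottom. Leucine against dairy was −0.22 ± 0.080 (limma adjusted p = 0.870), or −0.040 after quantile normalization. Phosphorylase kinase, which switches the phosphorylase on, is built from several subunits. Phkg1, its catalytic subunit in muscle, was lower with leucine by −0.46 ± 0.28 against dairy and −0.37 ± 0.28 against casein, with no overlap in either. Without dairy array 1 the difference from dairy was −0.17. Phkb, a regulatory subunit, differed by −0.23 ± 0.16 between leucine and dairy, with overlapping arrays. Phka1, another regulatory subunit, ranged from 9.92 on dairy array 2 to 10.87 on casein array 1, and its dairy arrays were as far apart as 10.81 and 9.92.

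The Ppp1r3 proteins tether protein phosphatase 1 to glycogen, where it turns the synthase on and the phosphorylase off. Ppp1r3a, the main muscle form, ranged from 10.07 on casein array 2 to 10.78 on dairy array 1 and was lower with leucine than with dairy by −0.19 ± 0.21. Ppp1r3e was dim and read 4.86 and 4.16 with casein, 3.84 and 4.16 with dairy and 4.11 and 4.16 with leucine. Casein array 1 was the high value. Dairy against casein was −0.51 ± 0.27 (limma adjusted p = 0.833), with arrays that overlapped. Ppp1r3d was also dim, from 4.86 to 5.72, and was highest on casein array 2.

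The enzymes around fructose bisphosphate set the direction of flux. Pfkfb3, an inducible kinase whose product is a strong activator of phosphofructokinase, read 7.87 and 9.25 with casein, 8.90 and 6.65 with dairy and 6.15 and 7.11 with leucine. Both leucine arrays lay below both casein arrays, and the dairy arrays lay far apart, overlapping both other diets. The log2 fold change for leucine against casein was −1.93 ± 0.96, or 3.81-fold lower, with a limma adjusted p of 0.625, and −1.24 without casein array 2. Against dairy it was −1.15 ± 0.96, which rested on which dairy array was used, since it was −0.019 without dairy array 1 and −2.27 without dairy array 2. Its promoter window is shown because the gene spread most over the arrays after Ldhb, and it carries the same capitals as above, 2 overlapping matches in a CACGTG palindrome 42 and 41 bases before the start.
Pfkfb3, chr17:71944683-71944932, plus strand: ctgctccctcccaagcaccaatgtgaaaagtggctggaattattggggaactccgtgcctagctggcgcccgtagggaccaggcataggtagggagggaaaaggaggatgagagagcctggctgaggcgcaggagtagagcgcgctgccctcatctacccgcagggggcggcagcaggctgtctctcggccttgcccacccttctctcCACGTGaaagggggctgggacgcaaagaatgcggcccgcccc
Pfkfb1, an isoform of liver and muscle, ranged from 9.05 to 9.61 and was 0.28 ± 0.22 higher with leucine and 0.21 ± 0.22 higher with dairy than with casein, with overlapping arrays. Fbp2, the muscle bisphosphatase that runs the step in reverse, read 8.53 and 7.51 with casein, 8.09 and 8.41 with dairy and 8.13 and 8.02 with leucine. The casein arrays held both the highest and the lowest value. Its differences from casein were 0.0505 ± 0.37 for leucine and 0.23 ± 0.37 for dairy, or −0.46 and −0.28 without casein array 2.

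Both enzymes of the glycerol phosphate shuttle, which carries electrons from cytosolic NADH to mitochondria, spread widely within diets. Gpd1, the cytosolic enzyme, read 10.67 and 10.14 with casein, 10.74 and 10.36 with dairy and 10.55 and 9.94 with leucine. Gpd2, the mitochondrial enzyme, read 8.52 and 7.92 with casein, 8.68 and 7.28 with dairy and 8.04 and 7.77 with leucine. In every diet the replicate 1 array was the higher for both genes, and all diets overlapped. Leucine against casein was −0.16 ± 0.31 for Gpd1 and −0.32 ± 0.53 for Gpd2.

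**Figure D4:**
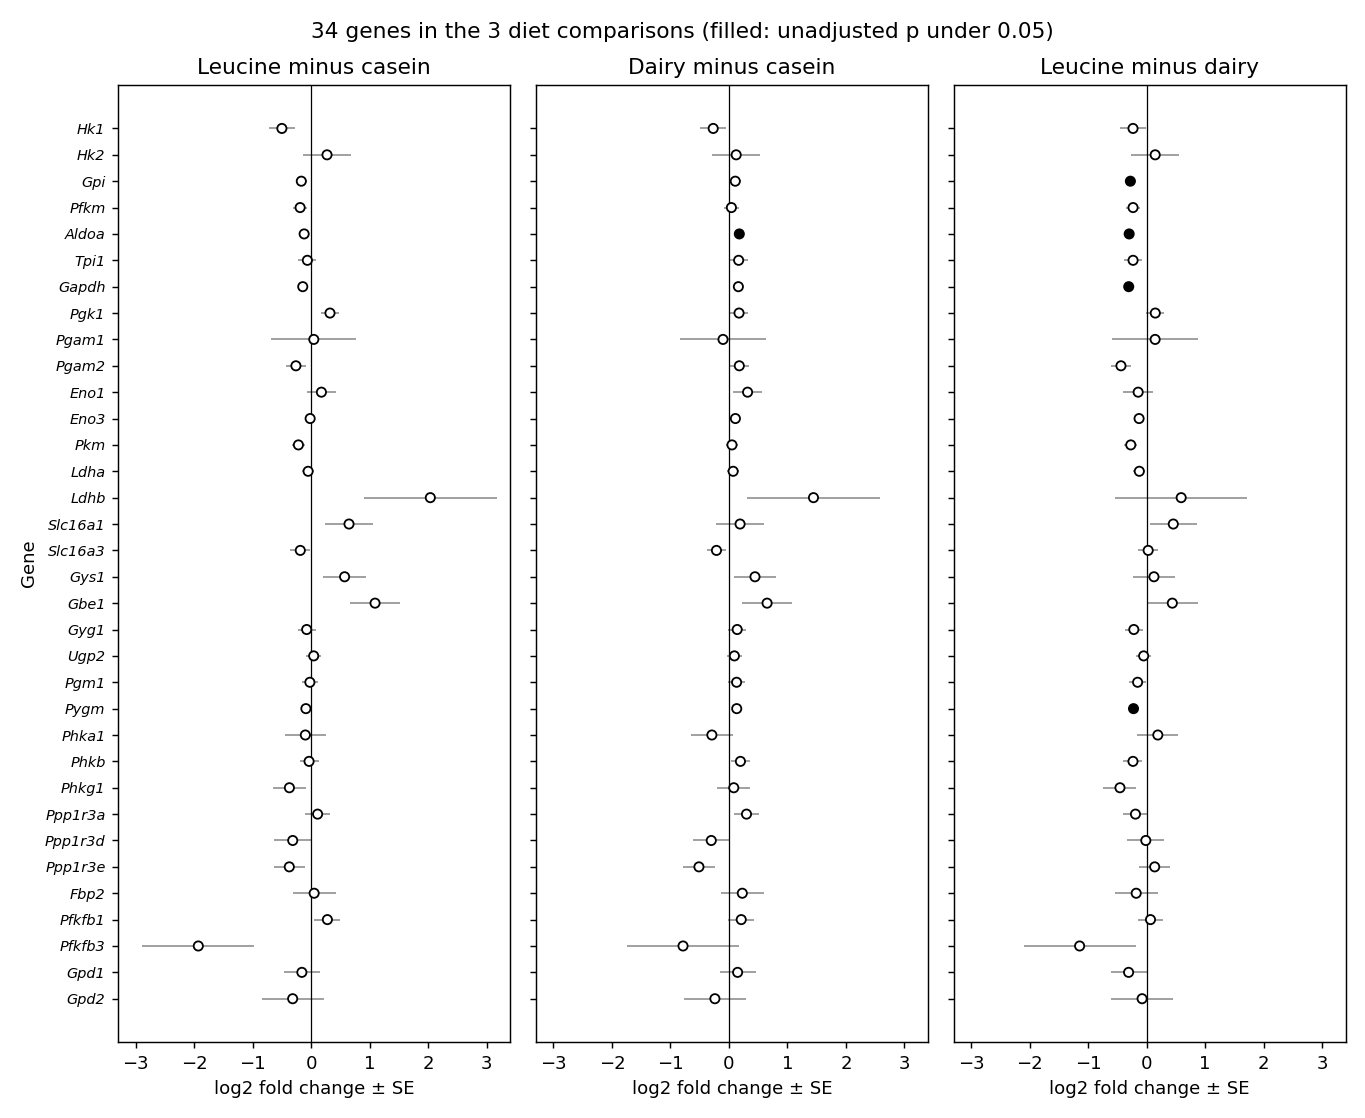
Log2 fold change with its SE (horizontal axis) of each of the 34 genes (vertical axis, in order of role) in the 3 comparisons, 2 arrays against 2, with filled points for an unadjusted p under 0.05. The filled points are Aldoa for dairy minus casein and Gpi, Aldoa, Gapdh and Pygm for leucine minus dairy.

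Taking all 34 genes, 22 were lower and 12 higher with leucine than with casein (median −0.071), where 49.1% of all genes were lower and 48.5% higher. On the scale centred by array medians 14 were lower and 20 higher (median 0.029). Arrays lay apart downwards in 9 and upwards in 5, where 15.6% and 15.9% of all genes did. With array centring this balance turned to 2 down and 7 up, where 8.18% and 42.9% did, and after quantile normalization it was 9 down and 3 up, where 17.7% and 22.7% did. With dairy 26 were higher and 8 lower than with casein (median 0.13), where 50.6% of all genes and 82.9% of the top 5% by level were higher and 46.3% of all genes lower. Without casein array 2 these were 18 and 16 (median 0.028). Arrays lay apart upwards in 7 and downwards in 0, where 11.5% and 11.7% of all genes did. This turned to 0 up and 3 down after quantile normalization, where 19.6% and 13.4% did, and was 11 up and 0 down with array centring, where 29.9% and 8.33% did. Leucine against dairy had 23 lower and 11 higher (median −0.15, or −0.046 after quantile normalization). Without leucine array 2 that median was −0.053, and without leucine array 1 or without dairy array 2 it was −0.23. Arrays lay apart downwards in 13 and upwards in 3 of the 34, where 14.9% and 13.4% of all genes did. After quantile normalization the split was 7 down and 6 up, where 18.6% and 21.3% of all genes lay apart. With array centring it was 10 down and 5 up, where 9.38% and 39.2% did, and 21 of the 34 were lower.

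Single arrays placed the genes unevenly. Of the 34, 10 were lowest on casein array 2, a share near the 23.3% of all genes that were. On leucine array 2, 13 were lowest, where 14.5% of all genes were. Dairy array 1 held the highest value of 17 of the 34 and of 16.2% of all genes. Ldhb and Gbe1 were over 2-fold below every other array on casein array 2, and 0 of the 34 were over 2-fold above, where 1.22% of all genes were. The 10 lowest on that array were Hk2, Tpi1, Eno1, Ldhb, Slc16a1, Gys1, Gbe1, Ppp1r3a, Fbp2 and Pfkfb1, beside all 11 slow-fibre markers. The part of fibre type in their values was not tested.

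**Figure D5:**
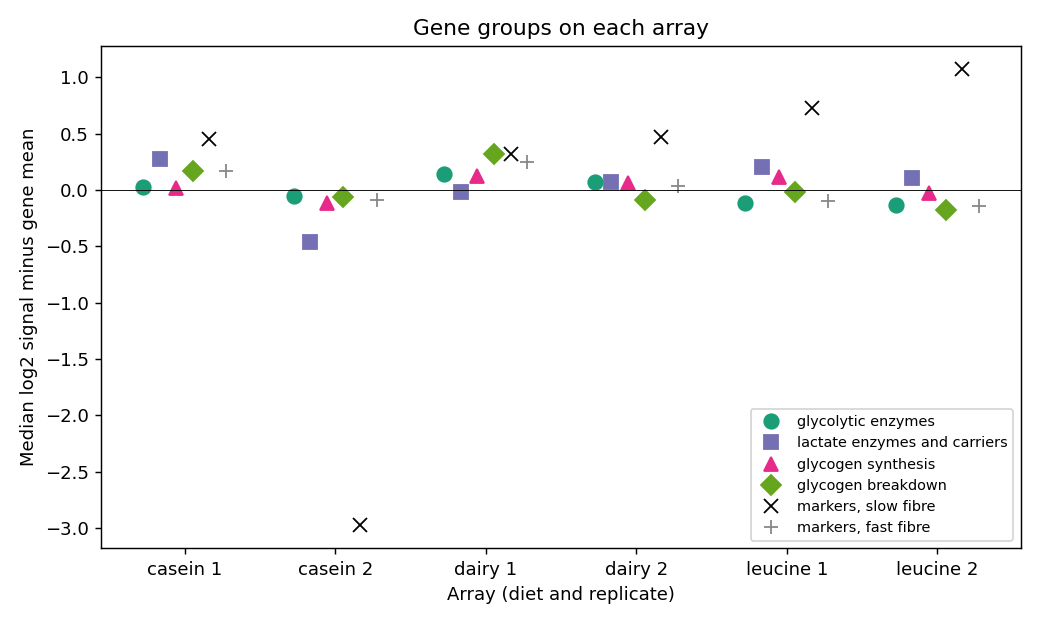
Median log2 signal relative to gene means (vertical axis) of 4 groups of the genes and of slow-fibre and fast-fibre markers on each of the 6 arrays (horizontal axis). Slow-fibre markers are at −2.98 on casein array 2, where lactate genes are at −0.46 and glycolytic enzymes at −0.049. Symbols of 1 array are set side by side so that they do not hide each other.

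A further 54 genes of the same pathways, largely isoforms of other tissues, gave 44 with a measurement, dimmer than the main list (median 4.70, percentile 57.4). By limma 0 of 44 passed the adjusted threshold in any comparison. At an unadjusted p under 0.05, 2 were higher and 2 lower with leucine than with casein, 0 differed with dairy, and 2 were higher and 1 lower with leucine than with dairy. These totals of 4 and 3 of 44 stand beside 9.61% and 5.7% of all genes, a share near the background. Pfkl, the liver phosphofructokinase, read 4.58 and 4.58 with casein, 4.61 and 4.59 with dairy and 4.31 and 4.36 with leucine, below both other diets by −0.25 ± 0.058 and −0.27 ± 0.058. Ppp1cc, a catalytic subunit of protein phosphatase 1, read 9.28 and 9.25 with leucine, above every array of the other diets. It exceeded casein by 0.37 ± 0.079 and dairy by 0.27 ± 0.079. Aldoc, the brain aldolase, was 0.47 ± 0.15 above dairy with leucine, while the testis gene Ldhc and Emb, a partner of lactate transporters, were very dim, with mean levels of 2.29 and 2.18, and differed from casein by 0.23 ± 0.071 and −0.47 ± 0.14. Of 8 liver isoforms in this list 6 were measured, and 4 of them were highest on casein array 2, as were the hepatocyte markers. G6pc1, the glucose phosphatase of liver, read 4.90 there and 2.90 to 3.20 on the other arrays, and Fbp1 read 3.98 there and 2.94 to 3.13 elsewhere.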

How the data were processed

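Total RNA of gastrocnemius was labelled with biotin and hybridised to Affymetrix Rat Gene 1.0 ST arrays, per the labels' protocols, which also speak of liver in the storage and extraction steps. The authors deposited log2 signals for each transcript cluster. Affymetrix Expression Console is named in the submitters' processing notes, while its version, background correction and normalization are not given in the sources used here. Values lay between 1.14 and 13.7, as log2 signals do. Array number limits the precision, and background readings were not analysed here.

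Clusters with 1 gene (15310 of 29214) were named through the platform annotation and RefSeq, and for each of 14506 genes the cluster with the highest mean was kept. In 60.8% of genes, and 7 of the 34 studied, arrays shared identical deposited values. A model of diet alone was fitted to all 6 arrays with limma 3.58.1 in R 4.3.3 (3 residual degrees of freedom), with empirical Bayes variances and Benjamini-Hochberg adjustment over all genes at 0.05. The procedure was tested on simulated data. Same-numbered arrays of different diets correlated in their deviations by 0.0865, 0.179 and 0.0536, not all over 0.1, so numbers were not taken as pairs. Other settings tried were quantile normalization, array centring, a filter on dim genes, cluster means, a variance trend, only the diets compared, a replicate block and each array left out. The genes, lists and tests were chosen with earlier results of these data known. Values on all arrays are given for 13 measured genes fixed by role and for the 4 with the smallest p per comparison, and the further genes are given by range or fold change.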

Additional observations from a re-analysis of the deposited data

How the results depend on the processing

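No gene of the list passed the adjusted threshold in the 3 comparisons under any setting tried. Over all genes 0 passed, except that without casein array 1 the count was 1 for leucine and 1 for dairy against casein, so that leaving out single arrays gave 0 to 1. That gene was Il6, an inflammatory cytokine named after its values were seen. The lone casein array was then casein array 2, which stood apart from the others, and it was assumed to vary like the other diets. For leucine against dairy the count was 0 throughout. The median of the 34 genes for leucine against casein was 0.029 with array median centring and ran from −0.15 to −0.012 with single arrays left out. For dairy against casein it was 0.027 after quantile normalization and ran from 0.028, without casein array 2, to 0.18 with single arrays left out. For leucine against dairy it was −0.046 after quantile normalization and ran from −0.23 to −0.053 with single arrays left out. Aldoa reversed after quantile normalization, to −0.012 for dairy against casein and 0.012 for leucine against dairy, and Gapdh stood at 0 in the latter. Of 60 fold changes of the named genes, 10 changed sign after quantile normalization, 11 without casein array 2, 3 with array centring and 2 to 5 without any other single array. Leaving out an array cannot change the fold changes of the comparison that does not use its diet. Values that fell to 0 after quantile normalization are not counted. These were Aldoa and Pygm for leucine against casein and Gapdh for leucine against dairy. The replicate block left 0 genes called over all genes and 0 of the 34. With it, genes of the list at an unadjusted p under 0.05 numbered 9 in place of 4 for leucine against dairy (6.62% in place of 5.7% of all genes, and 13.2% in place of 10.9% of the top 5% by level) and 0 in place of 1 for dairy against casein. With only the dairy and leucine arrays fitted the first count was also 9 (7.55% of all genes and 15.2% of the top 5% by level). Background readings of the arrays were not analysed, so the limit set by dim signals is not known.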
